A study of Mus musculus with 24 samples.

Results

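Of the 25229 genes counted in ID8 Trp53−/− mouse ovarian cancer cells, 9 that serve a cell to recognise foreign or misplaced RNA were examined. They were chosen by symbol and role, not by their values, although earlier results of these data were known: the RIG-I-like receptors Ddx58 (RIG-I), Ifih1 (MDA5) and Dhx58 (LGP2), their adaptor Mavs, the ubiquitin ligases Trim25 and Rnf135 (Riplet), the kinase Eif2ak2 (PKR), the RNA editing enzyme Adar and the endosomal receptor Tlr3. All 9 symbols were in the table, and all 9 passed the filter on low counts with 12941 genes in total.

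RIG-I-like receptors are RNA helicases of the cytoplasm. RIG-I binds double-stranded RNA (dsRNA) with a triphosphate or diphosphate end, MDA5 coats long dsRNA, and LGP2, which lacks the signalling domains of the other two, modulates both. RIG-I and MDA5 signal through MAVS on the mitochondrial outer membrane to the kinases TBK1 and IKKε and the transcription factors IRF3, IRF7 and NF-κB, which switch on type I interferon and inflammatory genes. Many of the receptors are themselves interferon-stimulated genes. PKR halts translation on binding dsRNA, ADAR converts adenosine to inosine in dsRNA and so makes it less visible to MDA5, and TLR3 detects dsRNA inside endosomes through the adaptor TICAM1 (TRIF).

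The cells were exposed for 6 days to DMSO, the solvent control, to cisplatin (750 nM per the labels; the methods of the study name another concentration for these cells), to AU-15330 (2.5 μM) or to both drugs, with 6 replicates per treatment and 24 libraries in all. ID8 is a line from mouse ovarian surface epithelium, and every group carried the same disruption of Trp53, so each comparison is within p53-deficient cells of 1 line. Cisplatin crosslinks DNA and served the study to induce senescence, which was not examined here, and AU-15330 is a PROTAC, a molecule that sends the SWI/SNF ATPases SMARCA4 and SMARCA2 for degradation. The design sets AU-15330 against its absence, both without and with cisplatin. The labels do not say that the replicates were separate cultures, so p-values measure the spread between these libraries, which may be technical.

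Polyadenylated RNA was sequenced, and 17592588 to 25260009 reads per library were counted on genes. Values are given as CPM, the count relative to the library total after TMM scaling, and 3 counts, taken as the floor of detection, correspond to 0.12 to 0.186 CPM, a limit that covers counting error only. The labelled cell type was checked against markers: of 12 mesothelial and epithelial genes 11 passed the filter, with a summed level of 3675 to 8563 CPM over the libraries and the lowest sums with AU-15330 (3675 to 4288 CPM). A gene can pass the filter through 1 group alone. Above the floor in every library of a group were 11 of the 12 with DMSO, 11 with cisplatin, 9 with AU-15330 and 10 with both. Wt1 and Msln, which define mesothelial-type cells, were at 845 and 524 CPM with DMSO and 614 and 117 CPM with AU-15330. Krt19, a keratin, was at 1783 CPM with DMSO and 7.005 with AU-15330, Krt18 at 646 and 122, and the uroplakin genes Upk3b and Upk1b at 45.3 and 27.8 with DMSO and 0.494 and 1.18 with AU-15330. Krt7 and Cdh1 were at 1.28 and 0.747 CPM with DMSO and 0.0317 and 0.151 with AU-15330. With cisplatin Upk3b and Upk1b were at 197 and 94.1 CPM, Krt7 and Cdh1 at 4.71 and 3.27, and Krt8 at 547 (337 with DMSO). Wt1, Msln, Krt18 and Cd44 were at 980, 578, 753 and 152 CPM with cisplatin, above their DMSO levels. Krt19 and Vim, at 1403 and 2121 CPM with cisplatin, were below theirs. Vim, which is not particular to these cells, made up most of the sum with AU-15330, at 2635 CPM with DMSO, 2791 with AU-15330 and 4052 with both, and the epithelial marker Epcam was nearly absent, with no more than 2 counts per library. Of 16 immune markers only Cd68 passed, Ptprc, which marks leukocytes, had at most 5 counts in a library, the macrophage marker Adgre1 was at 0 with DMSO and with cisplatin, and the summed immune level was 6.70 to 18.97 CPM with DMSO, 7.08 to 13.6 with cisplatin, 17.1 to 53.3 with AU-15330 and 24.6 to 42.8 with both. The 10 fibroblast and endothelial markers summed to 232 to 645 CPM with DMSO, 374 to 462 with cisplatin, 112 to 174 with AU-15330 and 195 to 295 with both. In such a sum, markers that move in opposite directions can cancel. Col1a1 had a mean of 368 CPM with DMSO, 224 with cisplatin, 70.5 with AU-15330 and 166 with both, and the other markers are not given singly here. The part of these shifts in the results was not tested, and in bulk RNA fewer cells expressing a gene cannot be told apart from less RNA of it per cell. Replicate 1 of the combination lay below the other 5 combination libraries for Ddx58, Ifih1, Mavs, Trim25, Eif2ak2, Adar and Tlr3, and no call on any of the 9 genes was lost when replicate 1 was left out of every group.

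Before the values, the promoters show what some of these genes share. RefSeq promoter windows (GRCm38.p6, 250 bases before to 50 after the start site) were found for 8 of the 9 genes, with 3 windows for Adar and 10 in all, and Dhx58 had none. The core of the interferon-stimulated response element, GAAANNGAAA on either strand, was present in 3 of the 10 windows, those of 3 genes, against 3.44% of 32851 promoter windows of all genes. The stretches that hold it are printed 5′ to 3′ on the strand of the gene, with the core in capitals, because they are the windows of these genes that hold it.
Ddx58: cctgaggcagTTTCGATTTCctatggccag
Ifih1: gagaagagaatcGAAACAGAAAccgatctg
Eif2ak2: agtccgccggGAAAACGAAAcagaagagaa
The Ddx58 stretch is chr4:40239804-40239833 on the minus strand, with the core read on the opposite strand and beginning at base 3 of the transcript. The Ifih1 stretch is chr2:62646206-62646235 on the minus strand, with the core beginning at base 33. The Eif2ak2 stretch is chr17:78882535-78882564 on the minus strand, with the core beginning at base 19.

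A looser search, added after the first was seen, let 1 letter of the core differ. It matched 35.4% of all windows and therefore says little of any single gene. It found a match in Trim25, Adar and Tlr3 beside the 3 genes above, and none in Mavs or Rnf135. The third Adar window, shown here as the one with neighbouring matches, holds 1 of them at chr3:89730735-89730764 on the plus strand.
Adar: gccttttcaaGGAAACGAAAgtgaactctg
The STAT dimer core TTCNNNGAA, searched on both strands, was in 8.3% of windows and in those of Eif2ak2 and Adar, where it overlaps the printed Adar match. These are matches of letters only, and a window without one says nothing about binding of a factor.

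Each drug alone raised most of the 9 genes above DMSO. With cisplatin 7 of 9 were higher and 1 lower at an adjusted p-value under 0.05, where 26% of all tested genes were called higher and 25.7% lower (3360 and 3329 genes, or 3977 and 2529 with library totals in place of TMM). With AU-15330 8 of 9 were higher and 1 lower, against 36.2% and 37.2% of all tested genes (4681 and 4816, or 5618 and 3973 with library totals). With both drugs 8 were again higher than in DMSO and 1 lower, beside 36.8% and 36.5% (4757 and 4729, or 5730 and 3867 with library totals). The median log2 fold change of the 9 genes was 1.78 with cisplatin, 2.43 with AU-15330 and 2.06 with both, while the median of all tested genes lay at −0.00413, −0.00301 and −0.000826. These 3 comparisons share the DMSO libraries. The gene that fell in each was Mavs.

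**Figure D1:**
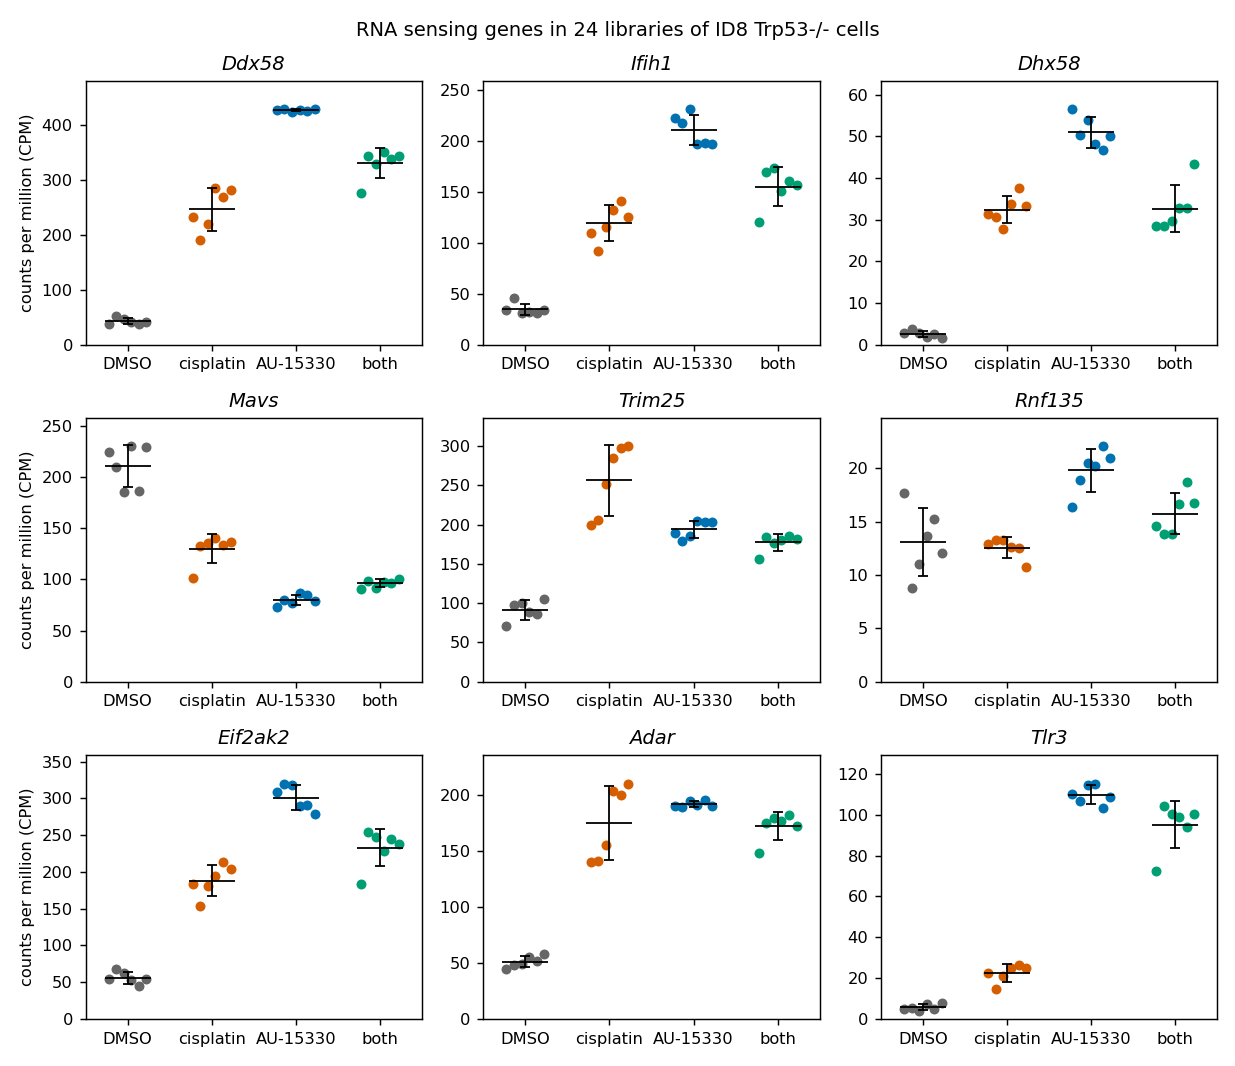
Level of each gene in CPM (linear axis from 0) in the 6 libraries of each treatment, with replicates 1 to 6 from left to right and black bars for the mean ± SD. 7 panels show DMSO at the bottom, Mavs shows DMSO at the top between 186 and 230.0 CPM, and Rnf135 shows overlapping DMSO and cisplatin libraries.

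Ddx58, the gene of RIG-I (GRCm38 chromosome 4, 40203773 to 40239828, minus strand), was at 37.0 to 52.9 CPM with DMSO (median 41.6, n = 6). It was at 190.4 to 286 CPM with cisplatin (median 251), 425 to 429 with AU-15330 (median 428) and 277 to 352 with both drugs (median 342). The AU-15330 libraries were the highest, the DMSO libraries the lowest, and of neighbouring treatments only cisplatin and the combination overlapped. Against DMSO the log2 fold change was 2.52 ± 0.10 (SE) with cisplatin (adjusted p = 6.64e-17, edgeR quasi-likelihood test) and 3.32 ± 0.10 with AU-15330 (adjusted p = 6.79e-20), a rise of 5.75-fold and 9.97-fold. The combination lay 0.42 ± 0.09 above cisplatin (adjusted p = 0.00024) and 0.37 below AU-15330 (adjusted p = 0.00223), so that all 4 levels of Ddx58 were in order DMSO, cisplatin, combination, AU-15330.

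Ifih1, the gene of MDA5 (chromosome 2, 62595798 to 62646255, minus strand), had the same order of treatments. Its level was 30.6 to 45.7 CPM with DMSO (median 33.2), 92.1 to 141 with cisplatin (median 121), 197 to 231 with AU-15330 (median 208) and 121 to 173 with both (median 158). Cisplatin raised it 3.44-fold (log2 fold change 1.78 ± 0.11, adjusted p = 3.65e-13) and AU-15330 6.08-fold (2.60 ± 0.11, adjusted p = 2.94e-17). The combination was 1.30-fold above cisplatin (adjusted p = 0.00195), with overlapping libraries, and below AU-15330 without overlap (log2 fold change −0.44 ± 0.10, adjusted p = 0.00108).

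Dhx58, which encodes LGP2 (chromosome 11, 100694884 to 100704271, minus strand), started from the lowest level per length of the 9 genes and rose by the largest factor with cisplatin. DMSO libraries held 34 to 79 counts, or 1.58 to 3.85 CPM (median 2.64). The level was 27.8 to 37.6 CPM with cisplatin (median 32.3), 46.7 to 56.5 with AU-15330 (median 50.1) and 28.5 to 43.3 with both (median 31.2). No treated library came near the DMSO range, 5 of the 6 combination libraries lay within the range of cisplatin and replicate 6 above it at 43.3 CPM, and all 6 lay below those of AU-15330. The rise was 12.8-fold with cisplatin (log2 fold change 3.68 ± 0.15, adjusted p = 1.53e-16) and 20.1-fold with AU-15330 (4.33 ± 0.15, adjusted p = 9.23e-19), within the errors of the rise of Tlr3. Between the combination and cisplatin the difference was 0.01 with a 95% interval of −0.25 to 0.26 (adjusted p = 0.955). The combination was lower than AU-15330 by 0.64 on the log2 scale (adjusted p = 0.000146). An antisense transcript covers 4.31% of the Dhx58 exon bases, and whether the counting used strand is not given in the sources used here.

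Mavs, the adaptor shared by RIG-I and MDA5 (chromosome 2, 131234063 to 131248025, plus strand), ran the opposite way to the receptors. Its level was 186 to 230.0 CPM with DMSO (median 217), 101 to 140.3 with cisplatin (median 135), 73.3 to 86.4 with AU-15330 (median 79.5) and 91.0 to 101 with both (median 97.1). No 2 treatments overlapped, although the lowest cisplatin library, replicate 1 at 101.4 CPM, came close to the highest combination library at 100.8 CPM. Mavs fell by 0.70 on the log2 scale with cisplatin (SE 0.07, adjusted p = 1.53e-08), to 0.617 of its DMSO level, and fell by 1.40 with AU-15330 (SE 0.07, adjusted p = 4.84e-15), to 0.380 of that level. The combination lay below cisplatin (log2 fold change −0.44 ± 0.07, adjusted p = 9.17e-06) and above AU-15330 (0.26 ± 0.07, adjusted p = 0.00595). No annotated exon of another gene overlaps Mavs.

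**Figure D2:**
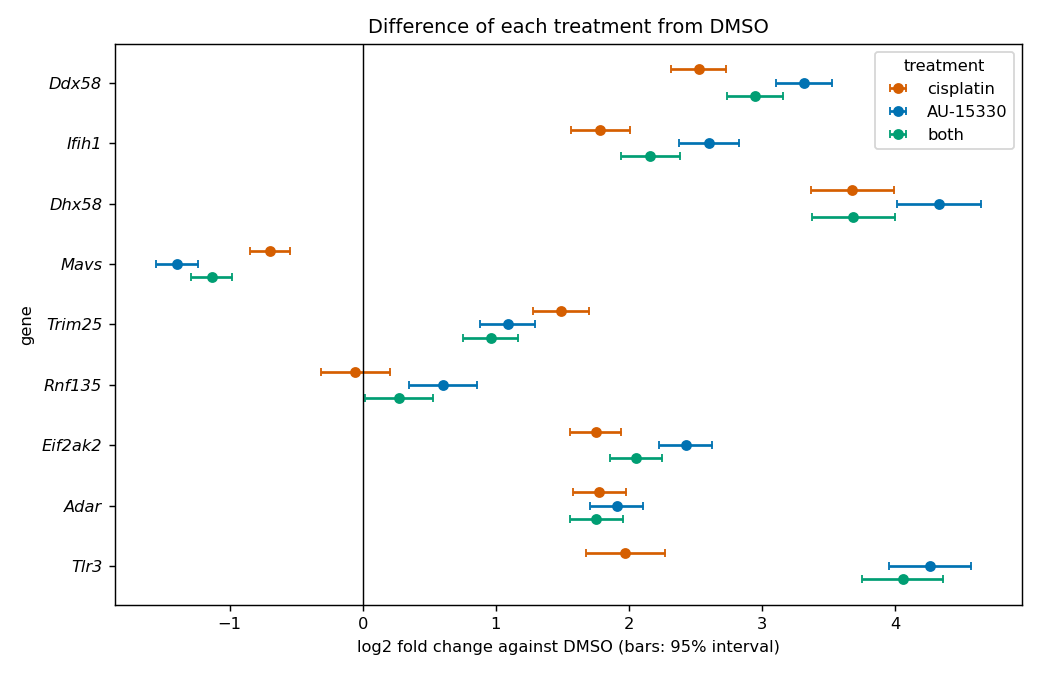
Log2 fold change of each gene against DMSO (horizontal axis) with cisplatin, AU-15330 or both drugs, with bars for the 95% interval of the fit. Dhx58 and Tlr3 lie farthest to the right with AU-15330, at 4.33 and 4.26, Mavs lies left of 0 with every treatment, and the Rnf135 interval with cisplatin spans 0.

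The 2 ligases that attach ubiquitin to RIG-I behaved differently from each other. Trim25 (chromosome 11, 88999376 to 89020293, plus strand) was at 70.5 to 105 CPM with DMSO (median 93.1), 199 to 299 with cisplatin (median 268), 179 to 204 with AU-15330 (median 196) and 156 to 186 with both (median 181). It was the only one of the 9 genes whose mean was highest with cisplatin. Its rise over DMSO was 2.81-fold with cisplatin (log2 fold change 1.49 ± 0.10, adjusted p = 3.4e-12) and 2.13-fold with AU-15330 (1.09 ± 0.10, adjusted p = 2.49e-10). Adding AU-15330 to cisplatin lowered Trim25 by 0.53 on the log2 scale (adjusted p = 3.35e-05), with no overlap of libraries, and the combination was not called against AU-15330 (−0.13, 95% interval −0.33 to 0.08, adjusted p = 0.307).

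Rnf135, the gene of Riplet (chromosome 11, 80183851 to 80199757, plus strand), changed least against DMSO with each treatment. Its DMSO libraries held 8.77 to 17.7 CPM (median 12.9), cisplatin libraries 10.7 to 13.3 (median 12.8), AU-15330 libraries 16.3 to 22.04 (median 20.3) and combination libraries 13.8 to 18.7 (median 15.7). Cisplatin and DMSO overlapped fully, with a log2 difference of −0.05 and a 95% interval of −0.31 to 0.20 (adjusted p = 0.739). AU-15330 raised it 1.52-fold over DMSO (log2 fold change 0.60 ± 0.12, adjusted p = 9.18e-05) in 5 of 6 same-numbered pairs, with overlapping libraries. The combination was called above cisplatin (0.33 ± 0.12, adjusted p = 0.0207), below AU-15330 (−0.33 ± 0.12, adjusted p = 0.0298) and above DMSO (0.27 ± 0.12, adjusted p = 0.0492). Each of these 3 calls was lost when 1 replicate number was left out: numbers 4, 5 or 6 for the first (adjusted p = 0.0714, 0.0895 and 0.108), numbers 3, 4 or 6 for the second (0.113, 0.0635 and 0.0597), and any number from 2 to 6 for the third (0.0928 to 0.156).

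Of Eif2ak2 and Adar, whose enzymes both bind dsRNA, Eif2ak2 followed the receptors. The gene of PKR (chromosome 17, 78852564 to 78882573, minus strand) was at 45.3 to 67.6 CPM with DMSO (median 53.8), 154 to 214 with cisplatin (median 189), 278 to 320.1 with AU-15330 (median 299.9) and 184 to 255 with both (median 241). AU-15330 libraries were above all others and DMSO libraries below all others, and only cisplatin and the combination overlapped. The log2 fold change over DMSO was 1.75 ± 0.09 with cisplatin (3.36-fold, adjusted p = 3.7e-14) and 2.43 ± 0.10 with AU-15330 (5.38-fold, adjusted p = 8.34e-18). The combination lay between, 0.31 above cisplatin (adjusted p = 0.00394) and lower than AU-15330 by 0.37 (adjusted p = 0.00172). An lncRNA and an rRNA annotated on the opposite strand, neither of them in the table, cover 3.4% and 0.919% of its exon bases.

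Adar (chromosome 3, 89715022 to 89753446, plus strand) rose above DMSO with each treatment. It was at 44.6 to 58.1 CPM with DMSO (median 50.5), 140.3 to 211 with cisplatin (median 178), 189 to 196 with AU-15330 (median 191) and 149 to 183 with both (median 176). Every treated library was above every DMSO library, and the rise was 3.43-fold with cisplatin (log2 fold change 1.78 ± 0.09, adjusted p = 3.75e-14) and 3.75-fold with AU-15330 (1.91 ± 0.10, adjusted p = 1.12e-15). The combination was not called against cisplatin (−0.02, 95% interval −0.21 to 0.17, adjusted p = 0.84), where the libraries overlapped. Nor was it called against AU-15330 (−0.15, interval −0.34 to 0.04, adjusted p = 0.185), although all 6 combination libraries lay below all 6 AU-15330 libraries, and it passed when only these 2 groups were fitted (adjusted p = 0.0148). In the 6 libraries with AU-15330 alone the spread was small, with an SD of 2.73 CPM. The 1365 exon bases that Adar shares with Chrnb2 on the opposite strand are 16.8% of its exons, and Chrnb2 itself had 22 to 90 counts per library, at most 4.05% of the Adar count.

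In the cisplatin group replicates 1 to 3 did not overlap with replicates 4 to 6 for 8 of the 9 genes, Mavs being the exception. How many of all tested genes separate in this way was not counted, so the split cannot be called particular to these genes. For Adar they were at 140.3, 142 and 156 CPM in replicates 1 to 3 and 204, 199.9 and 211 CPM in replicates 4 to 6. The labels name no batch, and what the numbers mark is not known. In replicates 1 to 3 alone the combination lay above cisplatin by 0.17 (adjusted p = 0.153) and AU-15330 above cisplatin by 0.40 (adjusted p = 0.00303), whereas in replicates 4 to 6 alone the combination lay below cisplatin (−0.24, adjusted p = 0.0011) and AU-15330 did not pass (−0.09, adjusted p = 0.15). Trim25 had 199, 205 and 251 CPM with cisplatin in replicates 1 to 3 and 285, 298 and 299 CPM in replicates 4 to 6. For Trim25 the combination was lower than cisplatin in both subsets (−0.37, adjusted p = 0.0341, and −0.72, adjusted p = 1.09e-07), and AU-15330 was called below cisplatin in replicates 4 to 6 only (−0.53, adjusted p = 2.4e-06, against −0.24, adjusted p = 0.144). Ddx58 had 190.4 to 233 CPM with cisplatin in replicates 1 to 3 and 269.6 to 286 in replicates 4 to 6, and Ifih1 had 92.1 to 116 and 126 to 141. Dhx58, Eif2ak2 and Tlr3 were likewise lower in replicates 1 to 3, and Rnf135 was higher there, at 12.9 to 13.3 CPM against 10.7 to 12.6. The rise of the combination over cisplatin was 0.53 in replicates 1 to 3 (adjusted p = 0.00392) and 0.27 in replicates 4 to 6 (adjusted p = 0.000354) for Ddx58, 0.52 (adjusted p = 0.0161) and 0.20 (adjusted p = 0.00659) for Ifih1, and 0.38 (adjusted p = 0.0294) and 0.19 (adjusted p = 0.0149) for Eif2ak2. For Rnf135 it was 0.07 and not called in replicates 1 to 3 (adjusted p = 0.795) and 0.51 in replicates 4 to 6 (adjusted p = 0.000659). The combination was called below AU-15330 in replicates 4 to 6 alone for Trim25 (−0.19, adjusted p = 0.0279) and Adar (−0.15, adjusted p = 0.0358), and in replicates 1 to 3 alone for neither (adjusted p = 0.534 and 0.117). The difference between the subsets was not tested, and they were chosen after the values were seen. The rise of Adar and Trim25 over DMSO with either drug was called in both subsets.

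Tlr3 (chromosome 8, 45395665 to 45411080, minus strand) stood out by its response to AU-15330. Its level was 4.05 to 7.76 CPM with DMSO (median 5.18), 14.6 to 26.4 with cisplatin (median 23.7), 103 to 115 with AU-15330 (median 109.5) and 72.7 to 105 with both (median 99.6). The 12 libraries with AU-15330 were all far above the 12 without it. AU-15330 raised Tlr3 19.2-fold (log2 fold change 4.26 ± 0.15, adjusted p = 7.81e-19) and cisplatin 3.93-fold (1.97 ± 0.14, adjusted p = 1.24e-11). On top of cisplatin AU-15330 still raised it 4.24-fold (2.08 ± 0.13, adjusted p = 1.68e-13), and the combination was not called against AU-15330 alone (−0.21, 95% interval −0.47 to 0.05, adjusted p = 0.183), although it was lower in 6 of 6 same-numbered pairs and passed when only these 2 groups were fitted (adjusted p = 0.0241). An antisense transcript that is not in the table covers 7.32% of its exon bases.

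When the combination was set against each single drug, the members did not move one way. Against cisplatin 5 of the 9 genes were higher and 2 lower, where 35.4% and 32.7% of all tested genes were called in these directions, and the median log2 fold change was 0.31 beside 0.0389 over all genes. Against AU-15330 1 was higher and 5 were lower, beside 22.2% and 19.5% of all tested genes, with a median of −0.33 beside 0.00615. Setting the single drugs against each other, AU-15330 gave higher levels than cisplatin for 6 genes and lower levels for 2, Mavs (−0.70, adjusted p = 3.68e-09) and Trim25 (−0.40, adjusted p = 0.000688), against 35.8% and 37.3% of all tested genes. Adar did not pass in that comparison (0.13, 95% interval −0.06 to 0.32, adjusted p = 0.2).

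Whether AU-15330 acted alike without and with cisplatin was tested as the interaction of the 2 drugs. The difference was below 0 for 7 of the 9 genes, against 15.8% of all tested genes, and above 0 for 1, Mavs, against 17.9%. With library totals in place of TMM, 2506 of the 12941 tested genes were below 0 and 1791 above, in place of 2048 and 2313, and the calls of the 9 genes were unchanged. For Ddx58 the effect of 3.32 without cisplatin became 0.42 with it, a difference of −2.89 ± 0.13 (adjusted p = 6.42e-15). Ifih1 (−2.22 ± 0.15, adjusted p = 9.02e-12) and Eif2ak2 (−2.12 ± 0.13, adjusted p = 1.66e-12) were alike in this, with 0.38 and 0.31 left. Adar (−1.93 ± 0.13, adjusted p = 1.6e-11) kept no called rise, its effect of 1.91 having become −0.02. Dhx58 had the largest difference of the 9, −4.32 ± 0.19 (adjusted p = 3.69e-15), its effect of 4.33 having shrunk to 0.01. Trim25 turned from a rise of 1.09 to a decrease (difference −1.62 ± 0.14, adjusted p = 1.78e-09).

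Tlr3 kept a rise of 2.08 with a difference of −2.18 ± 0.19 (adjusted p = 1.78e-09). The fall of Mavs became smaller, from −1.40 to −0.44 (difference 0.96 ± 0.10, adjusted p = 1.08e-07). Rnf135 did not pass (−0.28, 95% interval −0.64 to 0.08, adjusted p = 0.223). The contrast is additive on the log2 scale, so a gene that either drug alone brings to the same level gives a difference near the size of 1 drug effect. In each of the 8 called genes the direction was the same in 6 of 6 sets of same-numbered libraries.

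**Figure D3:**
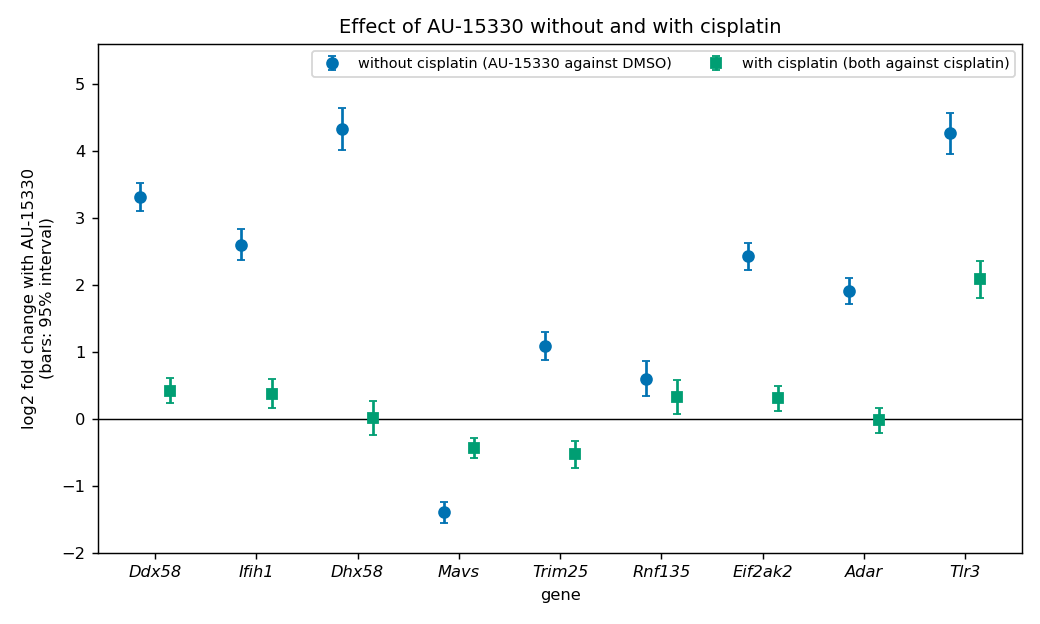
Log2 fold change with AU-15330 for each gene without cisplatin (circles, AU-15330 against DMSO) and with cisplatin (squares, both against cisplatin), with bars for the 95% interval. The 2 intervals overlap for Rnf135 and for none of the other 8 genes, and the points lie on opposite sides of 0 for Trim25 (1.09 and −0.53) and Adar (1.91 and −0.02, the latter not called).

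The opposite movement of receptors and adaptor changed which mRNA was the most abundant per length of transcript. Levels between genes were compared as CPM per kb of annotated exon. With DMSO Mavs stood at 63.1 ± 6.14 CPM per kb (SD, n = 6), 55.1% of the sum over the 9 genes, and Ddx58 at 6.08 ± 0.86, Ifih1 at 4.24 ± 0.69 and Dhx58 at 0.776 ± 0.251. With AU-15330 Ddx58 led at 60.7 ± 0.24 CPM per kb, followed by Eif2ak2 at 58.9 ± 3.38, which differ by less than the spread of Eif2ak2, and Mavs stood at 23.96 ± 1.46, or 8.79% of the sum. With cisplatin Trim25 (44.5 ± 7.89), Mavs (38.9 ± 4.28), Eif2ak2 (36.8 ± 4.06) and Ddx58 (35.0 ± 5.49) did not separate beyond their spread.

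Expressed as a ratio per kb within each library, Ddx58 to Mavs was 0.0792 to 0.120 with DMSO (median 0.0902), 0.680 to 1.09 with cisplatin (median 0.963), 2.35 to 2.77 with AU-15330 (median 2.56) and 1.45 to 1.71 with both (median 1.66). The 4 ranges did not overlap. For Ifih1 the ratio went from a median of 0.0647 with DMSO to 0.380 with cisplatin, 1.07 with AU-15330 and 0.657 with both. For Dhx58 the medians were 0.0133, 0.247, 0.645 and 0.338. These ratios were formed after the levels were seen and rest on exon lengths summed over all annotated transcripts, which may differ from those expressed here.

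**Figure D4:**
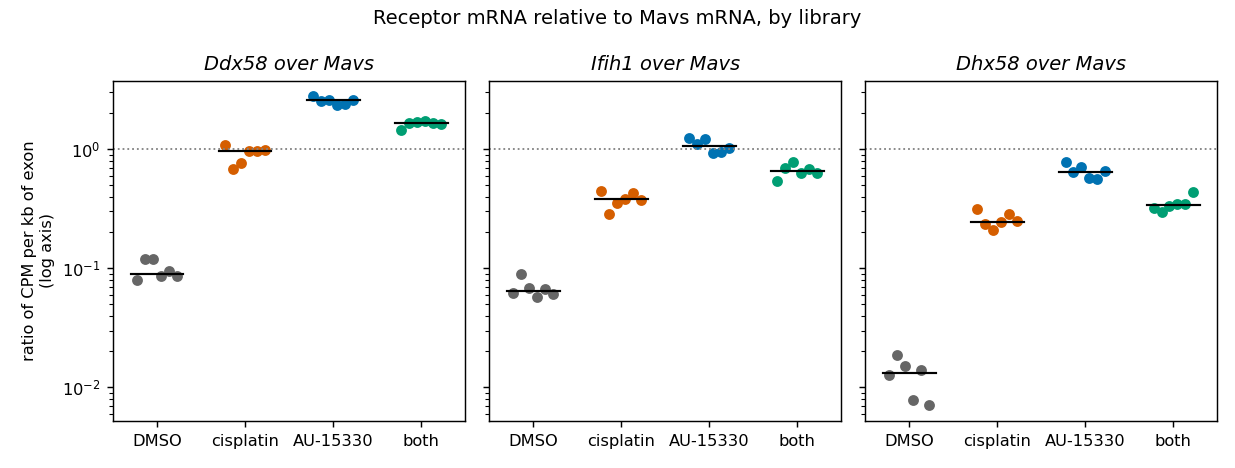
Ratio of CPM per kb of exon of Ddx58, Ifih1 and Dhx58 to that of Mavs (log axis) in each library, replicates from left to right, with a black line for the group median and a dotted line at a ratio of 1. The Ddx58 ratio lies under 0.120 in all DMSO libraries and between 2.35 and 2.77 in all AU-15330 libraries.

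The genes whose levels ran most like those of each member over the 24 libraries were taken from all tested genes. Because the libraries share the treatments, the correlation r of log2 CPM mostly follows the 4 group means, and r of the deviations from those means is given beside it. Eif2ak2 was the most alike gene of both Ddx58 and Ifih1, and Ifih1 and Ddx58 were the genes most like Eif2ak2. The value of r was 0.9954 between Ifih1 and Eif2ak2 (deviations 0.856) and 0.9953 between Ddx58 and Eif2ak2 (deviations 0.847). Dhx58 ran most like Xaf1 (0.9877, deviations 0.435) and Igtp (0.9861, 0.418), and Trim25 most like Stat2 (0.9779, 0.794). For Adar the most alike genes were Dtx3l (0.9959, 0.892), Ddx60 (0.9923, 0.75) and Parp14 (0.9913, 0.956).

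Stat2, Xaf1, Igtp, Dtx3l, Ddx60 and Parp14 are known interferon-stimulated genes. The other members had none of these: Tlr3 ran most like Sptan1 (0.9904, deviations 0.671), which encodes a spectrin chain, with Lrp11 and Abhd3 after it, and Mavs most like Irak1 (0.9826, 0.642), a kinase of Toll-like receptor signalling, with Ctnnal1 and Socs5 after it. Rnf135 was most like Rcbtb2 (0.9409, 0.842), Hint2 and Morn2. Between Mavs and the receptors r over all libraries was −0.932 for Ddx58, −0.937 for Ifih1 and −0.906 for Dhx58, and r of the deviations was 0.154, 0.197 and −0.208.

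Other genes of the pathway were taken from lists of co-factors, signalling parts and related enzymes, some of which stand in more than 1 list. The background for each count is the share of all tested genes called in that direction, which was 26% higher and 25.7% lower with cisplatin, 36.2% and 37.2% with AU-15330, and 35.4% and 32.7% on adding AU-15330 to cisplatin. Of 23 co-factors and regulators of RIG-I-like receptors 21 were tested: 5 rose and 6 fell with cisplatin, 11 rose and 6 fell with AU-15330, and 9 rose and 5 fell when AU-15330 was added to cisplatin. The median log2 fold changes were −0.0628, 0.224 and 0.079, beside −0.00413, −0.00301 and 0.0389 over all tested genes. Ddx60, a helicase reported to assist RIG-I, was the member with the largest increase with each single drug, from 1.58 CPM with DMSO to 56.4 with cisplatin (log2 fold change 5.16 ± 0.21, adjusted p = 1.66e-16) and 74.7 with AU-15330 (5.56 ± 0.21, adjusted p = 5.41e-18). Pcbp2, which promotes degradation of MAVS, had the largest decrease with cisplatin (−0.48, adjusted p = 3.78e-05), and Mex3c, a ligase for RIG-I, had it with AU-15330 (−0.93, adjusted p = 8.15e-13) and when AU-15330 was added to cisplatin (−0.64, adjusted p = 1.56e-09). In that last comparison Rnf125, a ligase that limits RIG-I, rose most (0.84, adjusted p = 4.45e-05).

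Zc3hav1 and Prkra were followed whatever their change. Zc3hav1, whose product is the zinc finger antiviral protein, rose with both single drugs (0.64, adjusted p = 8.06e-07 with cisplatin, and 0.70, adjusted p = 6.95e-08 with AU-15330). Prkra, the PKR activator PACT, which also binds RIG-I, fell with cisplatin (−0.31, adjusted p = 0.00245), rose with AU-15330 (0.53, adjusted p = 1.84e-06) and rose when AU-15330 was added to cisplatin (0.57, adjusted p = 7.45e-07).

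All 23 genes of signalling downstream of MAVS were tested. With cisplatin 8 rose and 4 fell, with AU-15330 12 rose and 7 fell, and on adding AU-15330 to cisplatin 13 rose and 5 fell, with medians of −0.0346, 0.249 and 0.209. The shares of all tested genes called higher and lower were 26% and 25.7% with cisplatin, 36.2% and 37.2% with AU-15330, and 35.4% and 32.7% on adding AU-15330 to cisplatin. The kinase Tbk1 did not pass with cisplatin (0.12, adjusted p = 0.0712) and rose with AU-15330 (0.66, adjusted p = 5.02e-11), whereas its relative Ikbke did not pass with cisplatin, with AU-15330 or on adding AU-15330 to cisplatin (adjusted p = 0.574, 0.332 and 0.147) and was lower in the combination than with AU-15330 (−0.47, adjusted p = 0.00737) and than with DMSO (−0.32, adjusted p = 0.0372). Irf3, the transcription factor present before infection, fell with cisplatin (−0.43, adjusted p = 6.17e-05) and with AU-15330 (−0.25, adjusted p = 0.0063). Irf7, its interferon-inducible relative, went from 8.49 CPM with DMSO to 227 with cisplatin, 167 with AU-15330 and 128 with both, the increase being the largest of the list with each single drug (log2 fold changes 4.75 and 4.30).

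Traf3, a ligase between MAVS and TBK1, rose with AU-15330 without cisplatin (0.74, adjusted p = 4.71e-07) and with it (0.70, adjusted p = 1.34e-06). Irf5, one of the 7 that fell with AU-15330, went from 20.6 ± 6.49 CPM with DMSO and 32.6 ± 3.19 with cisplatin to 0.433 ± 0.171 with AU-15330 and 2.15 ± 0.46 with both (AU-15330 against DMSO −5.54 ± 0.25, adjusted p = 1.37e-16, resting on 57 counts over the 6 AU-15330 libraries). Ikbkg, the regulatory subunit NEMO, had the largest decrease with cisplatin (−0.53, adjusted p = 0.00017), and Nfkbia, the inhibitor of NF-κB that is also its target, the largest increase on adding AU-15330 to cisplatin (0.83, adjusted p = 1.45e-07).

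Of 17 genes of the PKR and eIF2α axis, all tested, 0 rose and 10 fell with cisplatin by edgeR (none rose at an unadjusted p under 0.05 or by DESeq2 either, 0 of 17 each), 3 rose and 10 fell with AU-15330, and 9 rose and 3 fell when AU-15330 was added to cisplatin, with medians of −0.238, −0.254 and 0.236. The share of all tested genes that fell was 25.7% with cisplatin and 37.2% with AU-15330, and 35.4% rose on adding AU-15330 to cisplatin. Ddit3 (CHOP), a target of the eIF2α pathway, fell with cisplatin from 108 ± 45.1 to 41.0 ± 8.74 CPM (−1.39 ± 0.20, adjusted p = 2.68e-06) and was at 90.4 ± 4.04 with AU-15330 and 100.05 ± 8.34 with both. Atf4, the central transcription factor of that pathway, fell with cisplatin (−0.85, adjusted p = 2.08e-06) and with AU-15330 (−0.76, adjusted p = 3.81e-06), and Eif2ak3, the kinase PERK, fell on adding AU-15330 to cisplatin (−0.44, adjusted p = 0.000712).

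For TLR3 and endosomal sensing 15 of 18 listed genes were tested, of which 6 rose and 3 fell with cisplatin, 6 rose and 8 fell with AU-15330, and 5 rose and 7 fell on adding AU-15330 to cisplatin, with medians of 0.0347, −0.247 and −0.155. All tested genes rose and fell in 26% and 25.7% with cisplatin, 36.2% and 37.2% with AU-15330, and 35.4% and 32.7% on adding AU-15330 to cisplatin. Ticam1, the adaptor of TLR3, fell with cisplatin (−0.38, adjusted p = 0.000316) and rose with AU-15330, by 0.72 without cisplatin (adjusted p = 9.69e-09) and by 1.06 with it (adjusted p = 7.83e-12), the latter the largest increase of the list. Tlr7, a receptor for single-stranded RNA, went the other way from Tlr3, from 13.3 ± 2.36 CPM with DMSO and 16.4 ± 2.81 with cisplatin to 0.261 ± 0.136 with AU-15330 and 0.875 ± 0.165 with both (AU-15330 against DMSO −5.67 ± 0.23, adjusted p = 1.47e-17, resting on 33 counts over the 6 AU-15330 libraries). Myd88, the adaptor of most other Toll-like receptors, had the largest increase with AU-15330 (1.08, adjusted p = 8.92e-12). With cisplatin the extremes were the kinase Src (0.36, adjusted p = 9.19e-07) and the co-receptor Cd14 (−0.75, adjusted p = 0.00102).

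Of 23 genes that make, edit or remove dsRNA 21 were tested: 7 rose and 0 fell with cisplatin by edgeR (1 fell at an unadjusted p under 0.05 and 0 by DESeq2), 9 rose and 4 fell with AU-15330, and 8 rose and 4 fell on adding AU-15330 to cisplatin, with medians of 0.0293, 0.105 and 0.123. Among all tested genes 26% rose and 25.7% fell with cisplatin, 36.2% and 37.2% with AU-15330, and 35.4% and 32.7% on adding AU-15330 to cisplatin. Zbp1, a sensor of Z-form nucleic acid that ADAR restrains, had 4 counts over the 6 DMSO libraries and 1717 over those with cisplatin, where it was at 12.2 ± 2.74 CPM, and was at 0.834 ± 0.273 CPM with both drugs (combination against cisplatin −3.85 ± 0.24, adjusted p = 2.02e-13). Adarb1, the second editing enzyme, rose from 0.895 ± 0.382 CPM with DMSO to 6.71 ± 1.03 with AU-15330 (2.88 ± 0.22, adjusted p = 5.45e-12) and by 1.76 on adding AU-15330 to cisplatin (adjusted p = 2.5e-08).

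Against AU-15330 alone the combination was called higher for 22.2% and lower for 19.5% of all tested genes. Of the 21 co-factors and regulators 0 were higher by edgeR (1 at an unadjusted p under 0.05 and 0 by DESeq2) and 8 lower, with a median log2 fold change of −0.179. Downstream of MAVS 6 were higher and 7 lower of 23, in the PKR and eIF2α axis 4 and 2 of 17, in TLR3 and endosomal sensing 3 and 2 of 15, and among the dsRNA genes 5 and 2 of 21, with medians of −0.0371, 0.106, −0.0024 and 0.0652.

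The interferons themselves, the output of these sensors, were nearly silent at this depth. None of 20 type I and III interferon genes passed the filter, 12 had a count of 0 in all 24 libraries, and the highest count in any library was 16. Ifnb1, the interferon-β gene, had 0 counts over the 6 DMSO libraries and 24 over the cisplatin libraries, with 2 to 6 in each, which is near the floor of 3 counts in a library, so no fold is given. It had 2 counts over the AU-15330 libraries and 4 over the combination libraries.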

How the data were processed

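The authors treated the cells for 6 days and prepared directional libraries from poly(A) RNA. The submitters' processing notes name STAR 2.7.1a, DESeq2 1.36.0 and mm10. The counting tool, its use of strand and its annotation are not given in the sources used here. The deposited values are raw read counts per gene symbol in 48 columns, all matched to libraries by their labels, and the 2 lanes of each library (chi-square per degree of freedom 1.36 to 1.46) were summed to 24 libraries. No pair of libraries of a group agreed within counting noise (2.3 to 122).

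Groups came from the sample labels. Counts were scaled by TMM, filtered by filterByExpr and fitted in a single model of group means with edgeR 4.0.16 (R 4.3.3, limma 3.58.1), giving 20 residual degrees of freedom. Genes were called by the quasi-likelihood F test with Benjamini-Hochberg adjustment over 12941 tested genes and a threshold of 0.05. Standard errors are the log2 fold change divided by the square root of F, and log CPM used a prior count of 2. DESeq2 1.42.0 served as an alternative. The procedure was also run on simulated counts in which far fewer genes changed than were called here, so that run does not test the scaling at such shares.

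The members and lists were chosen with earlier results of these data known. Named genes of a list were those with the largest called increase and decrease in cisplatin against DMSO, AU-15330 against DMSO and the combination against cisplatin, and a few fixed genes, and the 3 most alike genes of each member. Some genes that this rule names are not reported here. Positions, lengths and overlaps came from GENCODE M21 (GRCm38). Replicate numbers 1 to 6 recur in every group. Deviations of same-numbered libraries correlated above 0.1 in 6 of 6 pairs only for the combination and AU-15330 (0.101 to 0.483), and the block on replicate number left the 1 higher and 5 lower members of that comparison. Of all 12941 tested genes the block called 3229 higher and 2956 lower there. There were 13 fixed alternatives and 2 chosen after the data were seen.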

Additional observations from a re-analysis of the deposited data

Results flagged for a closer look

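In 9 of 36 groups of 6 libraries (9 genes in 4 treatments) the highest or lowest library was distant from the rest, its gap to the nearest library taking a larger share of the whole range than the 95% critical value of Dixon's test for 6 values. About 1.8 such groups would be expected by chance if the groups were independent, which they are not, since the genes share libraries. Combination replicate 1 was the low library in 5 of the 9, with shares of the range of 0.709 for Ddx58 (277.1 CPM against 329.9 to 351.6), 0.688 for Trim25 (156.2 against 176.6 to 185.9), 0.634 for Eif2ak2 (184.0 against 228.9 to 254.7), 0.702 for Adar (148.7 against 172.6 to 182.8) and 0.668 for Tlr3 (72.67 against 93.92 to 104.5). The others were Dhx58 in combination replicate 6 (0.708, 43.27 CPM against 28.52 to 32.82), Ifih1 in DMSO replicate 2 (0.769, 45.69 against 30.65 to 34.13), Mavs in cisplatin replicate 1 (0.81, 101.4 against 132.9 to 140.3) and Rnf135 in cisplatin replicate 6 (0.688, 10.71 against 12.51 to 13.32). What sets these libraries apart was not tested.

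The effect of AU-15330 differed without and with cisplatin in 8 of the 9 genes by the interaction test of edgeR (log2 scale): Ddx58 −2.89, Ifih1 −2.22, Dhx58 −4.32, Mavs 0.96, Trim25 −1.62, Eif2ak2 −2.12, Adar −1.93 and Tlr3 −2.18. Of all tested genes 15.8% were called below 0 and 17.9% above.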

How the results depend on the processing

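In 15 alternatives (13 fixed, 2 added) 63 single values for the 9 genes, over 7 comparisons, were recomputed, and 893 of 936 recomputed values kept their direction and their side of the threshold. The replicate block changed no call of a member, for example Ddx58 in the combination against cisplatin (0.42, adjusted p = 0.000298), and the members called with it were again 7 higher and 1 lower for cisplatin against DMSO. Of all 12941 tested genes it called 3702 higher and 3652 lower there. Values that changed sign had not passed the threshold in the first place. Rnf135 in cisplatin against DMSO was 0.0182 with library totals only, 0.0818 in replicates 1 to 3 and −0.165 to 0.0253 over the fits without a replicate. Dhx58 in the combination against cisplatin was −0.0228 with DESeq2 size factors, −0.0228 with no filter, −0.0221 by DESeq2, −0.0173 with only the groups compared, −0.0379 with the first lane, −0.0806 in replicates 1 to 3, and −0.0849 to 0.0513 without a replicate. Adar in the combination against cisplatin was 0.0456 with library totals, 0.172 in replicates 1 to 3 and −0.0827 to 0.0333 without a replicate, and in AU-15330 against cisplatin it was −0.0874 in replicates 4 to 6. In replicates 1 to 3 the number of members higher in the combination than with AU-15330 was 0 by edgeR in place of 1, since Mavs did not pass (0.25, adjusted p = 0.139), and the number lower with AU-15330 than with cisplatin was 1 in place of 2. Of all tested genes 1483 of 13008 were called higher in the first of these comparisons, in place of 2873 of 12941. In the second 4009 were called lower, in place of 4825. In replicates 4 to 6 the number of members lower in the combination than with AU-15330 was 7 in place of 5, with Trim25 and Adar added. Of all tested genes 2945 of 12985 were called lower there, in place of 2521 of 12941. Fitting only the groups compared called Adar and Tlr3 lower in the combination than with AU-15330 (adjusted p = 0.0148 and 0.0241). Rnf135 in the combination against DMSO lost its call in 9 fixed alternatives, among them DESeq2 (adjusted p = 0.0708). Scaling by library totals moved the median of all genes by up to 0.139 (combination against DMSO). The causes were not tested. At 17592588 reads or more per library, depth limits mainly the interferon genes, Zbp1 with DMSO or AU-15330, and Tlr7 and Irf5 with AU-15330.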

Other observations

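Ddx58 was steadier among the 6 AU-15330 libraries than counting noise alone would give, with a coefficient of variation of 0.393% against 1.04% from a mean of 9261 counts. The same held, by a narrower margin, for Adar in these libraries (1.42% against 1.55%). In the other 34 of 36 groups of libraries the spread exceeded counting noise, and with 36 groups examined a single low value has no test here.

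Apart from Ifnb1, 7 interferon genes had any count, and their treatments differed. Ifnz had 42 counts over the 6 AU-15330 libraries and 21 over the combination libraries, with 2 with cisplatin and 0 with DMSO. Ifne had 47 with AU-15330, 24 with both, 8 with cisplatin and 10 with DMSO. Ifnab had 9 counts with cisplatin, 5 with AU-15330 and 2 with both, Ifnl3 had 5 and Ifna4 2, all with cisplatin, and Ifna16 and Ifnk had 1 each, with DMSO and with both drugs. All are below the filter and were not tested. The counts of those with near-identical copies, such as the interferon-α genes, are also uncertain for that reason.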
